A study of Mus musculus with 25 samples.

Results

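The fast muscle fibre genes described here are Myh1, Myh2, Myh4, Tnnt3, Tnni2, Tnnc2, Actn3, Mylpf, Pvalb and Atp2a1, a named list of 10 among the 55487 genes counted. They were measured by RNA-seq in 25 libraries of mouse Achilles tendon, from mice 3 months of age. The animals were wild type (WT) or AMPKcKO (cKO), a conditional knock-out aimed at AMPKα1, the kinase subunit encoded by Prkaa1. They lived at cage activity or were wheel runners, which gave 7 WT cage, 6 WT running, 6 cKO cage and 6 cKO running libraries, with both sexes in every group. The promoter that drives Cre, and therefore the cells in which the gene is deleted, is not given in the sources used here. The labels number the samples within each sex and do not say which came from separate litters or days, so the p-values measure the spread between these samples. Library names carry 2 project prefixes, and cKO cage male replicate 3 and WT cage female replicate 4, both at cage activity, hold the less common one.

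Skeletal muscle fibres contract when myosin pulls on actin, and each fibre is classed by the myosin heavy chain it makes. Slow fibres use Myh7, and fast fibres use Myh2 (type IIa), Myh1 (type IIx) or Myh4 (type IIb), in order of rising shortening speed in mice. Fast fibres also carry their own troponins, light chain, alpha-actinin and calcium pump, and the fastest of them hold parvalbumin, a calcium buffer. A tendon is connective tissue with no fibres of its own, and the muscle belly joins it at the myotendinous junction.

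All 10 genes were tested and none was at 0 in any library. Together they took 0.917% to 4.83% of a library's counts, with a median of 1.98%. Tendon markers were present beside them, since Col1a1, a chain of type I collagen, ran from 300 to 2367 FPKM and Tnmd, a tenocyte surface protein, from 10.3 to 76.1 FPKM. Of the genes listed for satellite cells, the stem cells of muscle, Pax7 did not pass 2.2 FPKM, Myf5 1.02, Myog 4.11 and Myod1 4.58. Myf6, in the same list, ran from 11.4 to 46 FPKM. In such whole-tissue RNA, fewer fibres in a sample and less RNA per fibre cannot be told apart.

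Totals ran from 13193228 to 45724243 counts per library. Prkaa1 was at 13.4 to 31.2 CPM (library-scaled counts, with TMM factors) in WT cage and 13.9 to 21.2 CPM in cKO cage, and at 15.6 to 31.1 CPM in WT running and 16.2 to 22.6 CPM in cKO running. The groups overlapped, and neither genotype difference passed edgeR's quasi-likelihood test (adjusted p = 1 at cage activity and 0.464 in runners). Prkaa1 was lower in cKO by both fits. Its log2 fold change was -0.41 ± 0.16 (SE) at cage activity and -0.32 ± 0.17 in runners (unadjusted p = 0.0198 and 0.0706, edgeR). An unadjusted p under 0.05 was reached by 1.13% of all genes at cage activity and 11.3% in runners. Cre was counted in no WT library and in every cKO library except cKO cage female replicate 3. eGFP, at 1 count or none in every other WT library, reached 119 CPM in WT running male replicate 2. WT running female replicate 2 and WT running male replicate 3 stood apart from the rest on the second principal component, which took 11.8% of the variance. Medians of the members and the myosin share differences are given below with all libraries and without these 4, taken in 2 pairs.

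Between genes, levels were compared as FPKM, which divides by transcript length. By median FPKM over the 25 libraries the order was Tnnc2 (3964), Tnni2 (3118), Tnnt3 (2865), Myh2 (1342), Atp2a1 (895), Mylpf (828), Myh1 (550), Pvalb (103), Myh4 (34.9) and Actn3 (31.8). Tnnc2 lay above Tnni2 in 25 of 25 libraries, and Tnnt3 above Myh2 in 25 of 25. Some neighbours did not keep that order from library to library. Atp2a1 was above Mylpf in 15 of 25 libraries, and Myh4 was above Actn3 in 14 of 25. The slow myosin Myh7, at a median of 4050 FPKM, exceeded Myh2 in all 25 libraries and exceeded the sum of the 3 fast myosins in 24.

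Myh2, Myh1 and Myh4 lie next to each other on the forward strand of chromosome 11, at chr11:67171027-67197517, chr11:67200052-67224575 and chr11:67238029-67260446 (GRCm38, GENCODE). Their coding sequences are close copies. Of the windows of 50 bases in the longest protein-coding transcript, 26.9% for Myh2, 26.7% for Myh1 and 18.9% for Myh4 also occur in a transcript of another gene. RSEM divides reads that match several genes by estimate, so part of each myosin's count is uncertain, while the 7 other members shared 0.117% of windows or less. The promoters of the 3 genes are shown because the 3 transcripts varied differently across libraries, and the promoters can be set side by side. Each is 300 bases 5′ to 3′ from RefSeq (GRCm38.p6, forward strand, 250 before and 50 after the annotated start), with capitals for the longest run common to all 3 and for TATAAA on either strand.
Myh2 promoter (chr11:67170777-67171076): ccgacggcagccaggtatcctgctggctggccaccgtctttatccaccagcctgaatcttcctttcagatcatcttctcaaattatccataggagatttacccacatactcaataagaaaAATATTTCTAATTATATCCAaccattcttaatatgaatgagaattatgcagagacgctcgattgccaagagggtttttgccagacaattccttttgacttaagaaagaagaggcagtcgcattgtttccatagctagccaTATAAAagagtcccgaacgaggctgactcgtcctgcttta
Myh1 promoter (chr11:67199852-67200151): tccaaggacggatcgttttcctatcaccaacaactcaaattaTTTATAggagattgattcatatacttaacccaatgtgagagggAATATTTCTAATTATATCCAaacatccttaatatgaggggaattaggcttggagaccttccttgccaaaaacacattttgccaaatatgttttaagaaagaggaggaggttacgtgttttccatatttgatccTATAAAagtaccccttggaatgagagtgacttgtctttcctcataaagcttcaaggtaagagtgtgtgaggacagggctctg
Myh4 promoter (chr11:67237562-67237861): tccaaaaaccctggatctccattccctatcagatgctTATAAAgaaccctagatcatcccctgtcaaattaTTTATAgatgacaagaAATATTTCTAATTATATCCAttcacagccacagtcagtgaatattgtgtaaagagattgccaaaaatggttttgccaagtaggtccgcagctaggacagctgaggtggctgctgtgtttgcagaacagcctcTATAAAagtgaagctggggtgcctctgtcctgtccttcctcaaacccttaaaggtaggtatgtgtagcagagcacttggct
The common run is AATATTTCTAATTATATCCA, 20 bases long, and it begins 130 bases before the start in Myh2, 165 before in Myh1 and 163 before in Myh4. Of the 32851 promoters in the table, only these 3 hold it on either strand. TATAAA on either strand, found in 13.6% of all promoters, lies in each of the 3, and its nearest copy begins 32 bases before the start in Myh1 and 31 before in Myh4. In Myh2 the 1 copy begins 10 bases after the annotated start. The E-box letters CANNTG, on both strands, occur 3 times in the Myh4 promoter and not in the windows of Myh1 and Myh2, against 72.3% of all promoters with a match. These are matches of letters, and no measurement of binding was made.

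Myh2 was the most abundant fast myosin. In WT cage its lowest, median and highest levels were 2199, 9199 and 11825 CPM, and in WT running 5035, 10061 and 14881 CPM. In cKO cage they were 5578, 8908 and 14798 CPM, and in cKO running 2717, 6010 and 8594 CPM. The cKO running group had the lowest median, and its range overlapped that of every other group.

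Myh1 was more variable. It ran from 1164 to 6895 CPM in WT cage (median 4727), from 785 to 7735 CPM in WT running (median 1779), from 627 to 9069 CPM in cKO cage (median 3356) and from 386 to 3535 CPM in cKO running (median 1891). Both running groups had medians below those of their cage groups, and the ranges overlapped.

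Myh4 varied far more than any other member. In WT cage its lowest, median and highest levels were 27, 528 and 5734 CPM, and in WT running 2.01, 7.92 and 14884 CPM. In cKO cage they were 7.38, 771 and 4160 CPM, and in cKO running 2.65, 164 and 4470 CPM. The highest library, WT running male replicate 1, was 7417-fold above the lowest, WT running female replicate 1, and both were WT runners. The second highest WT runner reached 41.6 CPM. Myh4 was under 50 CPM in 5 of 6 WT runners and in 1 of 7 WT mice at cage activity. In cKO the count was 2 of 6 at cage activity and 2 of 6 in runners. Over 1000 CPM it was 3 of 7 in WT cage, 1 of 6 in WT running, 3 of 6 in cKO cage and 1 of 6 in cKO running. The line at 50 CPM lies just above the second highest WT runner. These counts are descriptions and were not tested.

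**Figure D1:**
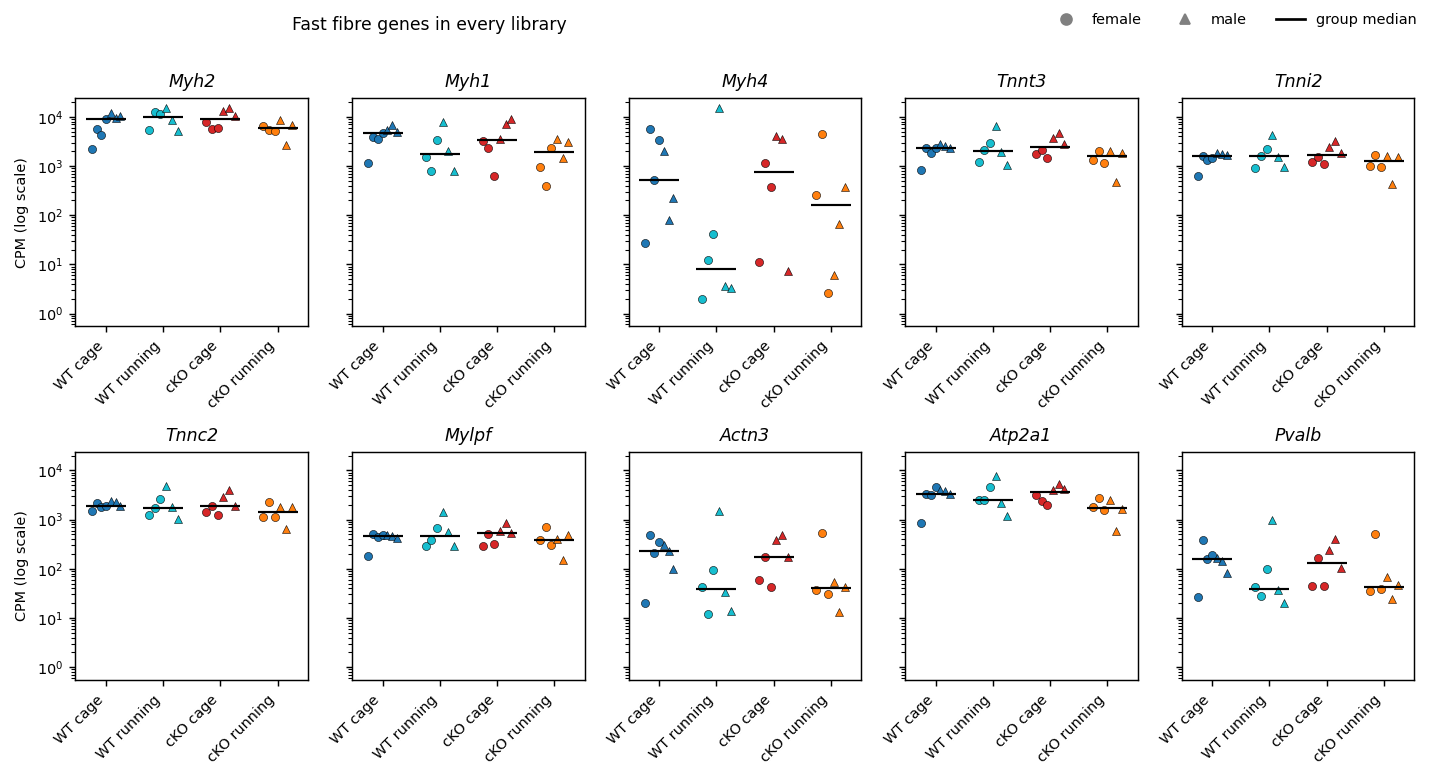
CPM of each fast fibre gene (log scale) in the 25 libraries, by group, with circles for females, triangles for males and a line at the group median. Myh4 spans 2.01 to 14884 CPM, while Tnnc2 spans 640 to 4846 CPM.

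The mix of fast myosins was also taken as each gene's share of the summed FPKM of Myh1, Myh2 and Myh4. With running, the Myh1 share fell in WT. It was 25.6%, 31.9% and 43% (lowest, median and highest) in the 7 WT cage libraries and 6.43%, 20.1% and 23.3% in the 6 WT running libraries, and the groups did not overlap. The 3 shares are parts of one sum, so a high share of 1 myosin lowers the others. In WT running male replicate 1 the Myh1 share was 20.9% beside 39.8% for Myh4. Without that library the difference in means was -16.3 points (exact permutation test, adjusted p = 0.0152). Myh1 against Myh2 alone was not tested between groups. The means were 33.4% ± 7.19 and 17.7% ± 6.46 (SD, n = 7 and 6), a difference of -15.6 points (two-sided exact permutation test p = 0.00117, adjusted p = 0.014 over 12 tests). The fall was -15.3 points among females and -16.2 points among males, with too few animals of 1 sex to test.

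The call did not hold in every subset of libraries. Without WT running female replicate 2 and male replicate 3 the difference was -11.9 points (exact permutation test, adjusted p = 0.145), and without WT running female replicate 2 alone it was -13.4 points (adjusted p = 0.0606). Without cKO cage female replicate 3 and WT running male replicate 2 it was -16 points (adjusted p = 0.0303). In cKO, the Myh1 share was 26.5% ± 12.9 at cage activity and 23.7% ± 12.4 in runners (SD, n = 6 and 6; difference -2.77 points, exact permutation test, adjusted p = 0.827). That difference was -6.2 points without cKO cage female replicate 3 and 1.45 points without cKO cage male replicate 3. Whether running moved the share differently in the 2 genotypes was not tested.

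The Myh2 share had the opposite sign in WT and did not pass the test. It was 55.6% ± 10.2 in WT cage and 75.6% ± 18.8 in WT running (SD, n = 7 and 6), a difference of 20 points with an exact permutation p of 0.0373 and an adjusted p of 0.224. WT running male replicate 1 stood out in these same shares, with Myh2 at 39.3% and Myh4 at 39.8%. Naming it therefore depended on the values tested. Without that library the difference was 27.2 points (exact permutation test, adjusted p = 0.0152), the largest with any library left out. Without WT running female replicate 2 and male replicate 3 it was 12.9 points (exact permutation test, adjusted p = 0.727), and without cKO cage female replicate 3 and WT running male replicate 2 it was 18.9 (adjusted p = 0.409). In cKO the Myh2 share differed by 2.82 points with running, and by 6.91 without cKO cage female replicate 3. Among the other 5 WT runners, Myh4 held between 0.0291% and 0.278% of the fast myosins. The Myh4 share averaged 11% ± 13.7 in WT cage, 6.72% ± 16.2 in WT running, 8.82% ± 8.27 in cKO cage and 8.77% ± 17.3 in cKO running (SD, n = 7, 6, 6 and 6). The smallest adjusted p of its 4 comparisons, by exact permutation, was 0.827. With running in WT its difference was -4.33 points, -1.01 without WT running female replicate 2 and male replicate 3, and -2.99 without cKO cage female replicate 3 and WT running male replicate 2. With running in cKO it was -0.0481 points, and -0.716 without cKO cage female replicate 3. On the log2 scale, the ratio of Myh4 to Myh2 averaged -3.66 in WT cage and -8.51 in WT running (difference -4.85, exact permutation p = 0.0344, adjusted p = 0.138 over 4 tests).

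Genotype moved no myosin share past the threshold. At cage activity cKO differed from WT by -6.88 points for Myh1, 9.11 for Myh2 and -2.23 for Myh4, with exact permutation adjusted p of 0.753, 0.683 and 0.827. In runners the differences were 5.99, -8.05 and 2.06 points, with adjusted p of 0.753, 0.779 and 0.827 by the same test.

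The sizes of these genotype differences moved with single libraries. At cage activity they were -3.45, 5.01 and -1.56 points for Myh1, Myh2 and Myh4 without cKO cage female replicate 3. Without cKO cage male replicate 3 the Myh1 difference was -11.1 points and the Myh2 difference 11.6. Without cKO cage male replicate 3 and WT cage female replicate 4, a choice made after seeing the data, they were -12.1, 11.1 and 0.976 points (exact permutation test, adjusted p = 0.221, 0.416 and 0.948). In runners they were 2.21, -0.948 and -1.26 points without WT running female replicate 2 and male replicate 3, and 6.3, -7.03 and 0.721 points without WT running male replicate 2. With each runner left out in turn, Myh1 ran from 3.73 to 9.95 points (lowest without WT running female replicate 2, highest without cKO running female replicate 3) and Myh2 from -15.3 to -4.47 (without WT running male replicate 1 and female replicate 2).

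**Figure D2:**
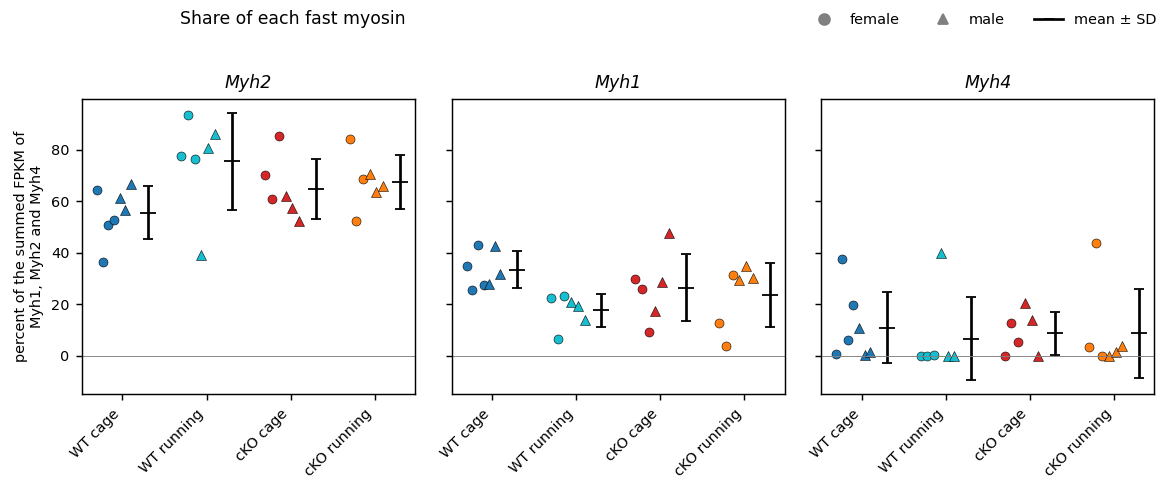
Percent of the summed FPKM of the 3 fast myosins held by each, per library and group (circles female, triangles male), with the group mean and SD at the right of each group. Every WT running library lies at or below 23.3% for Myh1 and every WT cage library at or above 25.6%. WT running male replicate 1, at 20.9% for Myh1, held 39.8% Myh4.

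Actn3, the alpha-actinin of fast Z-discs, lies at chr19:4861216-4877909 on the reverse strand, and Pvalb, which encodes parvalbumin, at chr15:78191114-78206400 on the reverse strand. Actn3 was at 20.6, 231 and 495 CPM (lowest, median and highest) in WT cage and 11.9, 38.1 and 1508 CPM in WT running. In cKO it was at 43.4, 174 and 476 CPM at cage activity and 13.5, 40 and 522 CPM in runners. Both running groups had low medians with 1 library far above the rest.

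Pvalb followed the same pattern. It was at 26.7, 159 and 376 CPM in WT cage and 19.8, 39.5 and 973 CPM in WT running, and at 44, 133 and 402 CPM in cKO cage and 23.8, 43.1 and 515 CPM in cKO running. In WT running the highest library was male replicate 1 for Actn3, Pvalb and Myh4 alike, and in cKO running it was female replicate 3 for all 3. The next library of those groups was at 92.6 and 53 CPM for Actn3 and at 97.6 and 67.1 CPM for Pvalb.

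The 8 libraries with the most Myh4 were also the 8 with the most Pvalb, and 7 of them were among the 8 with the most Actn3. The same count was 6 for Tnnc2, 5 for Myh1, Tnnt3, Mylpf and Atp2a1, and 4 for Myh2 and Tnni2. The log2 ratio of Actn3 to Pvalb had an SD of 0.53 over the 25 libraries, against SDs of 1.92 for Actn3 and 1.53 for Pvalb by themselves. That of Myh4 to Pvalb had an SD of 2.99, and it ran from -4.33 to 4.18.

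**Figure D3:**
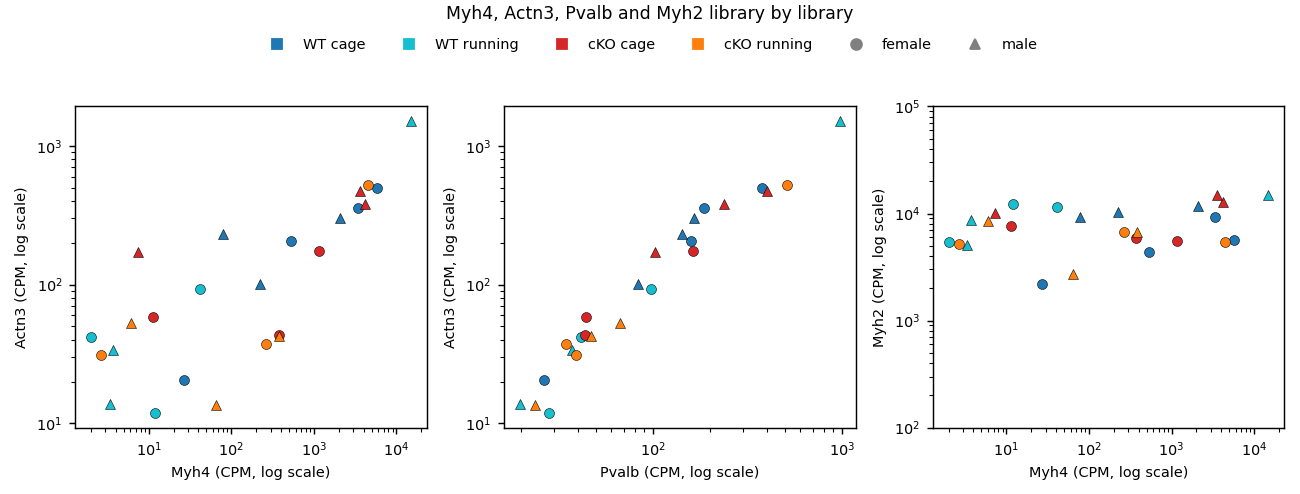
Levels of Actn3 against Myh4, Actn3 against Pvalb and Myh2 against Myh4 in the 25 libraries (CPM, both axes log, colours for groups, circles female and triangles male). WT running male replicate 1 is at the upper right of the first pair of panels, with 1508 CPM of Actn3, while Myh2 keeps to 2199 to 14881 CPM across the whole range of Myh4.

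The group fold changes of these 3 genes in WT runners depended on that library. With all libraries, running against cage in WT gave a log2 fold change of 0.09 ± 1.73 (SE) for Myh4, -0.15 ± 0.97 for Actn3 and 0.09 ± 0.85 for Pvalb, with edgeR adjusted p of 0.994, 0.98 and 0.986. The SEs implied by the F-tests of these 3 genes were larger, at 2.46, 1.1 and 0.93. Without WT running male replicate 1 the values were -7.24, -2.7 and -1.89, with unadjusted p of 0.00108, 0.00463 and 0.0166 and adjusted p of 0.131, 0.225 and 0.334 by edgeR. That library was named for its high levels of these same genes, so these p-values are descriptions. Leaving out the same library turned the genotype difference in runners from -1.04 to 6.04 for Myh4, from -0.79 to 1.53 for Actn3 and from -0.46 to 1.39 for Pvalb. In cKO, running against cage gave -0.45, -0.51 and -0.24 for Myh4, Actn3 and Pvalb, and without cKO running female replicate 3 these became -3.05, -2.38 and -1.87 (edgeR adjusted p = 0.443, 0.223 and 0.246).

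Of the other members, Tnnt3, Tnni2, Tnnc2, Mylpf and Atp2a1, like Myh2, varied less once set against genes that all fibres use. The reference was the mean log2 CPM of 18 such pan-fibre genes, among them the actin Acta1 and the creatine kinase Ckm. The log2 ratio to it had an SD over libraries of 0.31 for Tnni2, 0.32 for Atp2a1, 0.34 for Tnnt3, 0.37 for Mylpf and Myh2 and 0.4 for Tnnc2, against 0.62 to 0.83 for their log2 CPM. For Myh1, Pvalb, Actn3 and Myh4 the SD of the ratio was 1.09, 1.22, 1.58 and 3.9. Tnni2 and Tnnt3, neighbours on chromosome 7 (chr7:142441808-142444410 and chr7:142498836-142516009, both forward), had a log2 ratio to each other with an SD of 0.15.

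The fast troponin complex consists of Tnnt3, which binds tropomyosin, Tnni2, which inhibits contraction, and Tnnc2, the calcium sensor. Tnnt3 had medians of 2368, 1998, 2414 and 1569 CPM in WT cage, WT running, cKO cage and cKO running, within a range of 467 to 6440 CPM. Tnni2 had medians of 1629, 1566, 1698 and 1278 CPM in the same order, and ranged from 436 to 4227 CPM. Tnnc2, at chr2:164777161-164779967 (reverse), had medians of 1924, 1732, 1889 and 1452 CPM and ranged from 640 to 4846 CPM. For all 3 genes cKO running had the lowest median and held the lowest library, male replicate 2, while the highest library was WT running male replicate 1.

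Mylpf, the regulatory light chain of fast myosin, lies at chr7:127208890-127214298 (forward) and had medians of 456, 469, 533 and 391 CPM, with a range of 149 to 1451 CPM. Atp2a1, which encodes SERCA1, the pump that returns calcium to the sarcoplasmic reticulum of fast fibres, lies at chr7:126445858-126463108 (reverse). It was at 864, 3319 and 4520 CPM (lowest, median and highest) in WT cage and 1202, 2515 and 7655 CPM in WT running. In cKO it was at 1963, 3608 and 5336 CPM at cage activity and 590, 1731 and 2762 CPM in runners. Its levels overlapped between the groups in each of the 4 comparisons of 2 groups, as did those of each other member. Among all genes tested, the ranges did not overlap for 0.047% (genotype at cage activity), 0.376% (genotype in runners), 0.543% (running in WT) and 0.887% (running in cKO).

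At cage activity no genotype difference in these genes passed the test, and some were estimated with little precision. By edgeR, 0 of 10 members were called at an adjusted p under 0.05, where 0% of the 19155 genes tested were called. No member (0 of 10) reached an unadjusted p under 0.05. Log2 fold changes (cKO against WT) ran from -0.49 for Myh4 to 0.29 for Myh2, with a median of 0.08 against 0 for all genes. The median was 0.07 without WT running female replicate 2 and male replicate 3, 0.18 without cKO cage female replicate 3 and WT running male replicate 2, and 0.25 without WT running male replicate 1. With each of the 25 libraries left out in turn it ran from -0.07 to 0.25. Here and below, a library outside the groups compared acts only through the fit that all groups share. DESeq2 and limma-voom also called 0 members and 0% of all genes.

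In runners all 10 members had lower fitted levels in cKO than in WT, and none passed the test. By edgeR 0 of 10 were called, where 0% of all genes were called. An unadjusted p under 0.05 was seen for 2 members, a level that 11.3% of all genes reached. The median log2 fold change was -0.67, against 0.01 for all genes. Atp2a1 had -0.91 ± 0.39 (SE, edgeR adjusted p = 0.42), Tnnt3 -0.76 ± 0.37 (adjusted p = 0.44) and Myh2 -0.72 ± 0.34 (adjusted p = 0.439). DESeq2 and limma-voom called 0 members as well, and 0% of all genes.

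The same direction was seen across fibre genes as a whole. All 18 pan-fibre genes (median log2 fold change -0.66), all 12 slow fibre genes (median -0.55) and 21 of 22 other fast fibre genes (median -0.6) had negative values. Summed pan-fibre levels were 54582 to 188753 CPM in WT running and 19352 to 85970 CPM in cKO running. Of the other fast fibre genes, those with the smallest p were Myoz3, a Z-disc protein (-1.08 ± 0.34, edgeR adjusted p = 0.387), Ryr1, the calcium release channel (-1.13 ± 0.44, adjusted p = 0.4), and Rpl3l, a ribosomal protein of striated muscle (-0.83 ± 0.33, adjusted p = 0.401). With the pan-fibre mean as a covariate the members' median became 0.1, with 7 of 10 positive, and the values for Myh2, Tnnt3, Tnni2, Tnnc2 and Atp2a1 lay between -0.04 and 0.05. The covariate itself differed between the groups, with a mean log2 CPM of 10.3 in WT running and 9.54 in cKO running. Such a fit takes out any difference that the members share with it, whatever its source. The 6 Schwann cell genes were all positive (median 1.5). Their sums were 69.7 to 272 CPM in WT running and 96.2 to 1212 CPM in cKO running, with no gene at 0. Positive values were also held by 5 of 5 adipocyte genes (median 0.37) and 5 of 5 endothelial genes (median 0.23). The same was true of 5 of 6 macrophage genes (median 0.21) and 5 of 9 tenocyte genes (median 0.23). The part of these cell types in the result was not tested.

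The size of this difference moved with single libraries. Without WT running male replicate 1 the members' median was -0.18 with 3 of 10 positive, and without cKO running male replicate 2, the library with the lowest level of the pan-fibre genes, it was -0.38 with none positive. Without WT running female replicate 2 and male replicate 3 it was -0.96, and without cKO cage female replicate 3 and WT running male replicate 2 it was -0.78.

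Running in WT gave values of both signs among the members. By edgeR 0 of 10 were called, where 0.131% of all genes were called. At an unadjusted p under 0.05 the count was also 0. The log2 fold changes ran from -0.77 ± 0.48 (SE) for Myh1 (adjusted p = 0.633, edgeR) to 0.45 ± 0.34 for Mylpf, with a median of 0.1 against 0 for all genes. Myh2 had 0.4 ± 0.33 (edgeR adjusted p = 0.741). With the pan-fibre mean as a covariate, Myh1 had -1.1 (unadjusted p = 0.0147, adjusted p = 0.203 by edgeR). DESeq2 and limma-voom called 0 members, where they called 0.841% and 0.47% of all genes.

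The median for running in WT changed sign with 1 library and also with the fit. With all libraries it was -0.15 by limma-voom, with 3 of 10 members positive. With the pan-fibre mean as a covariate it was -0.26, with 2 of 10 positive. By edgeR without WT running male replicate 1 it was -0.26, with 3 of 10 members positive. Without WT running female replicate 2 and male replicate 3 it was 0.47, and without cKO cage female replicate 3 and WT running male replicate 2 it was 0.34, with 9 of 10 positive in each case.

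In cKO, running gave negative values for all 10 members, and again none was called by edgeR, where 0.0418% of all genes were called. The median was -0.55 against 0.03 for all genes. Atp2a1 had -0.91 ± 0.39 (SE, edgeR adjusted p = 0.325) and Myh1 -1.06 ± 0.5 (adjusted p = 0.363), and these were the 2 members with an unadjusted p under 0.05, a level that 13.6% of all genes reached. DESeq2 and limma-voom called 0 members, where they called 1.12% and 2% of all genes. With no filter on low counts edgeR called both of these members, and 1.35% of the 42619 genes then tested.

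The median for running in cKO was -0.35, with 2 of 10 members positive, without cKO running male replicate 2, and -0.93 without cKO running female replicate 3. It was -0.63 without WT running female replicate 2 and male replicate 3 and -0.74 without cKO cage female replicate 3 and WT running male replicate 2. This comparison and the genotype comparison share the cKO running libraries. Beside it, 18 of 18 pan-fibre genes (median -0.5), 11 of 12 slow fibre genes (median -0.45) and 21 of 22 other fast fibre genes (median -0.49) were negative. The 6 Schwann cell genes were positive (median 1.67), with sums of 50.6 to 285 CPM in cKO cage. So were 6 of 6 macrophage genes (median 0.49) and 5 of 5 adipocyte genes (median 0.22). Of the tenocyte genes 4 of 9 were positive (median -0.02), and of the endothelial genes 1 of 5 (median -0.07). The part of these cell types was not tested. Of the other fast fibre genes the smallest p were those of Eya1, a transcriptional cofactor (-0.78 ± 0.31, edgeR adjusted p = 0.288), Rpl3l (-0.74 ± 0.33, adjusted p = 0.336) and Tmod4, which caps thin filaments (-0.59 ± 0.3, adjusted p = 0.395). With the pan-fibre mean as a covariate the members' median was -0.06, and that covariate also differed between the groups (mean 10.2 in cKO cage and 9.54 in cKO running).

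**Figure D4:**
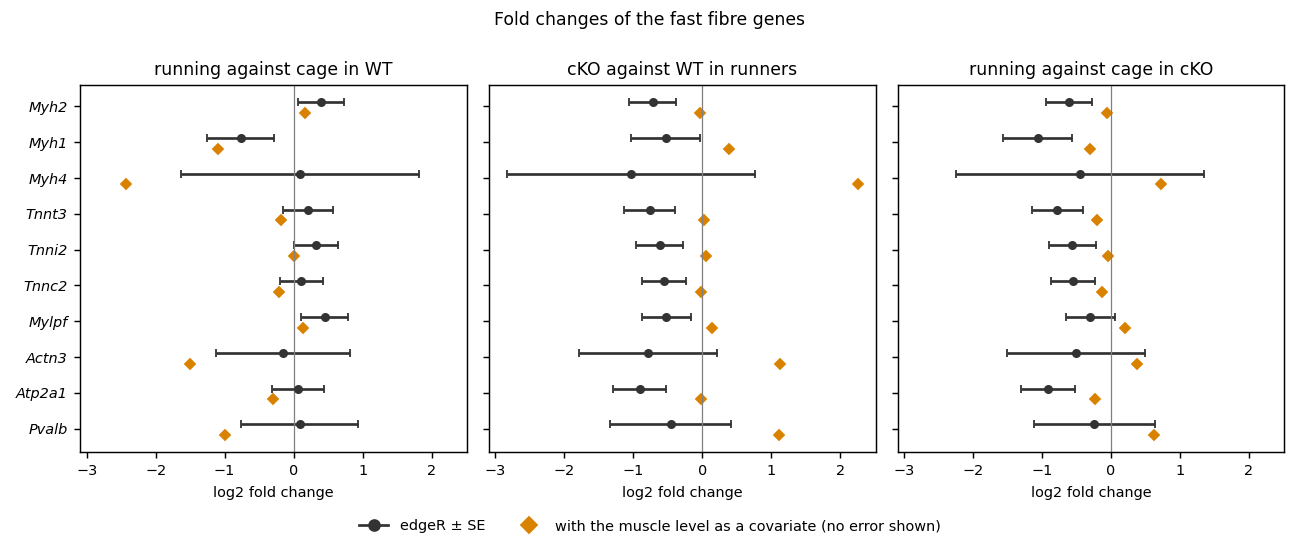
Log2 fold changes of the 10 members in 3 comparisons (black points with SE, edgeR), and the values with the pan-fibre mean as a covariate (orange diamonds). In runners Atp2a1 moves from -0.91 to -0.02 with the covariate, while Myh4 moves from -1.04 to 2.26. The covariate itself was lower on average in cKO running than in WT running.

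The genotype-by-running interaction called 0 of 10 members by edgeR, where 0% of all genes were called, and Myh2 was the 1 member with an unadjusted p under 0.05 (-1.01 ± 0.47, SE; adjusted p = 0.672), a level that 7.19% of all genes reached. All 10 values were negative, with a median of -0.7 against 0.02 for all genes, and 0 were called by DESeq2 or limma-voom, which called 0% of all genes. By limma-voom, 4 of 10 values were positive. With the pan-fibre mean as a covariate the median was 0.08. Without WT running male replicate 1 it was -0.37 with 4 of 10 positive, and without cKO running male replicate 2 it was -0.48 with 3 of 10 positive. Without WT running female replicate 2 and male replicate 3 it was -1.06, and without cKO cage female replicate 3 and WT running male replicate 2 it was -1.03, with none positive in either case.

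Between the sexes, all 10 members had higher fitted levels in males, with a median log2 fold change of 0.5 against 0 for all genes. None was called by edgeR, where 0.616% of all genes were called. At an unadjusted p under 0.05 the count was 2, a level that 10.1% of all genes reached. Without WT running male replicate 1 the median was 0.18 with 7 of 10 positive, and Myh4, Actn3 and Pvalb were then at -1.44, -0.47 and -0.51. Without cKO running male replicate 2 it was 0.62, without WT running female replicate 2 and male replicate 3 it was 0.41 with 9 of 10 positive, and without cKO cage female replicate 3 and WT running male replicate 2 it was 0.43. Myh1 had the largest value, 1.1 ± 0.35 (SE, edgeR adjusted p = 0.219). It ranged from 386 to 4727 CPM in the 13 females (median 2323) and from 785 to 9069 CPM in the 12 males (median 4212), so the ranges overlapped. DESeq2 called 0 members and 1.31% of all genes. Myh1 was the 1 member called by limma-voom with quality weights, which called 2.31% of all genes, and by edgeR with no filter, which called 1.04%. The slow fibre genes lay on the other side, with 12 of 12 lower in males (median -0.32) and 0 called, and the pan-fibre genes had 13 of 18 positive (median 0.12). The Schwann cell genes were lower in males in 6 of 6 (median -1.14), and the macrophage genes in 6 of 6 (median -0.32). Of the tenocyte genes 5 of 9 were lower (median -0.16). The adipocyte genes were lower in 2 of 5 (median 0.13) and the endothelial genes in 2 of 5 (median 0.12). None of these lists was tested against the fibre genes.

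Outside the lists, 5 genes followed the mean log2 CPM of the members most closely among 12684 genes compared over the 25 libraries. They were Pgm1, phosphoglucomutase of glycogen breakdown (Pearson r = 0.952), Tmem233 (r = 0.939), Ldha, the lactate dehydrogenase subunit of glycolytic tissue (r = 0.925), Phka1, a subunit of the kinase that activates glycogen phosphorylase (r = 0.922), and Amd1, an enzyme of polyamine synthesis (r = 0.919). These points share library depth and muscle content, and the values are descriptions. The members' mean moves most with Myh4, Actn3 and Pvalb, whose log2 CPM had SDs of 4.08, 1.92 and 1.53 over the libraries.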

How the data were processed

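Expression was measured by RNA-seq in 25 Achilles tendon libraries. The deposited expected counts are gene-level values, whole numbers in every cell, and the deposited FPKM values cover the same libraries. The tools named in the submitters' processing notes are RSEM 1.3.3, STAR 2.7.8a, cutadapt 2.3 and FastQC 0.11.8, and the build is GRCm38 (mm10). Strand, read length and the annotation release are not given in the sources used here. Entries for 4 reporter sequences did not enter the tests.

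Counts were tested with edgeR 4.0.16 in R 4.3.3 (filterByExpr, TMM scaling, 4 group means and a sex term, quasi-likelihood F-test), which kept 19155 genes. P-values were adjusted by Benjamini-Hochberg over these genes in each of 6 comparisons, and a gene was called under 0.05. Log2 CPM used a prior count of 2. SEs of log2 fold changes were computed from the covariance of the fitted model, and can differ from those the F-test implies. Myosin shares were computed from FPKM and compared over samples with two-sided exact permutation tests, adjusted over 12. Totals were 13193228 to 45724243 counts. The script was tested on simulated data.

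The members and gene lists were chosen with earlier results of these data known. Genes named besides the members are up to 3 other fast fibre genes with the smallest p in each of 2 comparisons, the 5 genes with the highest correlation to the members' mean (mean log2 CPM of at least 1), Prkaa1, Cre and eGFP as checks, and Acta1, Ckm and Myh7 as reference levels. Alternatives covered RLE scaling, other filters, DESeq2 1.42.0, limma 3.58.1 on counts (voom) and on log2(FPKM + 1) and log2(FPKM + 0.1), a muscle covariate, a replicate block, and libraries left out. Promoters of 7 of the 10 members were found in the RefSeq table.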

Additional observations from a re-analysis of the deposited data

Results flagged for a closer look

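In 52 sets of values (each member's CPM and each myosin share in each group), 14 values lay far from the rest of their group by a gap test. That test flags about 1 set in 20 by chance if values are normal and sets independent. CPM are skewed and the members vary together, so the 14 flags cannot be set against that rate. WT running male replicate 1 accounted for 7 of the 14. It held 14884 CPM of Myh4 (next library 41.6), 1508 CPM of Actn3 (92.6), 973 CPM of Pvalb (97.6), 6440 CPM of Tnnt3 (2895) and 1451 CPM of Mylpf (660), and its fast myosins were 39.8% Myh4 and 39.3% Myh2, against at most 0.278% and at least 76.4% in the other WT runners.

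In cKO running female replicate 3, Myh4 was 4470 CPM (next library 380), Actn3 522 CPM (53) and Pvalb 515 CPM (67.1), and Myh4 made up 43.9% of its fast myosins against 3.77% in the next. WT cage female replicate 1 was low, with 182 CPM of Mylpf (nearest library 431), 864 CPM of Atp2a1 (3135) and 633 CPM of Tnni2 (1336). It had the second lowest mean level of the pan-fibre genes of all 25 libraries.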

How the results depend on the processing

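Fold changes were followed under the alternatives for all members for genotype in runners and running in cKO. For running in WT they were those of Myh1, Myh2, Myh4, Actn3 and Pvalb. Myh2 was followed for the interaction and Myh1 between the sexes, and none for genotype at cage activity. Of the 1076 values, 999 kept their direction and their side of the threshold, and 74 changed sign. These include fits without a library from outside the groups compared. Counts of members called stayed at 0 except that 2 were called for running in cKO with no filter on low counts (Myh1 at -1.07, adjusted p = 0.0299, and Atp2a1 at -0.92, adjusted p = 0.047, by edgeR), and 1 between the sexes with no filter and by limma-voom. With no filter, edgeR called 574 of 42619 genes for running in cKO and 445 between the sexes. For the genotype difference in runners, Myh4 became 1.4 by limma-voom, 1.6 on log2(FPKM + 1) with or without a filter, 1.96 on log2(FPKM + 0.1), 0.67 with only the 2 groups and 2.26 with the muscle covariate. Pvalb became 0.05 on log2(FPKM + 1) with or without a filter, 0.06 on log2(FPKM + 0.1) and 1.11 with the covariate, and Actn3 0.02 on log2(FPKM + 0.1) and 1.13 with the covariate, which also gave 0.39 for Myh1, 0.03 for Tnnt3, 0.05 for Tnni2 and 0.14 for Mylpf. With each library left out in turn, Myh4 ran from -3.33 to 6.04, Actn3 from -2.55 to 1.53 and Pvalb from -2 to 1.39.

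For running in WT, Myh4 became -5.24 by limma-voom, -3.6 on log2(FPKM + 1) with or without a filter, -4.27 on log2(FPKM + 0.1), -2.28 with only the 2 groups and -2.43 with the covariate. Pvalb became -1.02, -0.94, -0.95, -0.25 and -0.99 under the same settings. Actn3 became 0.22 with no sex term, 0.57 without WT running female 2 and male 3 and 0.18 without cKO cage female 3 and WT running male 2. Leaving out each library gave -7.24 to 0.86 for Myh4, -2.7 to 0.28 for Actn3 and -1.89 to 0.44 for Pvalb. For running in cKO the covariate gave 0.73 for Myh4, 0.38 for Actn3, 0.2 for Mylpf and 0.62 for Pvalb, and leaving out each library gave -3.05 to 0.23 for Myh4 and -1.87 to 0.13 for Pvalb.

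The fall of the Myh1 share with running in WT kept its direction under every alternative run. With each library left out it ran from -16.9 to -13.4 points. It no longer passed without WT running female 2 alone (-13.4, exact permutation test, adjusted p = 0.0606). Nor did it pass without WT running female 2 and male 3 (-11.9). Leaving out each library also took the Myh1 share with running in cKO from -6.2 to 1.45 points and the Myh2 share from 16.4 to 27.2 in WT and -0.501 to 6.91 in cKO. For Myh4 the ranges were -4.54 to 2.23 (genotype at cage activity), -4.97 to 8.67 (genotype in runners), -10.9 to 0.127 (running in WT) and -7.08 to 2.26 (running in cKO), and without WT running female 2 and male 3 the second was -1.26. Without WT cage female 4 and cKO cage male 3, chosen after seeing the data, the Myh4 share differed by 0.976 points between genotypes at cage activity and the Myh1 share by 1.45 with running in cKO. Between genotypes at cage activity the Myh2 share differed by -4.26 points among males and by 21 points among females. The cause was not tested.

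The replicate block, a fit by sex and number, gave 3.61 for Myh4 between genotypes in runners, -4.25 for Myh4 and -0.69 for Pvalb for running in WT, and 0.17 for Myh4 for running in cKO. Differences within pairs of the same sex and number gave -16.6 points for the Myh1 share with running in WT (exact sign-flip test p = 0.0312, adjusted p = 0.375), and 0.0312 is the smallest p that 6 pairs allow. Deviations of same-numbered libraries had correlations of -0.2 to 0.21 (median -0.01, 34 pairs). Each deviation is taken from a mean of few libraries, so these values cannot decide whether the numbers pair the samples. The labels do not say. Over all genes, counts of calls in the 6 comparisons depended on the setting, from 2 to 349 for running in WT, 0 to 574 for running in cKO, 0 to 282 for genotype in runners and 29 to 445 between the sexes.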
